A study of Mus musculus with 8 samples.

Results

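The Cwc22 segment is a 190 kb stretch of mouse chromosome 2, from 77.69 to 77.88 Mb in build mm9. It carried some of the densest islands, by score per kb, in these H3K27me3 ChIP-seq lists from livers of adult male mice. H3K27me3 is the trimethylation of histone H3 that Polycomb repressive complex 2 lays down, and it marks silent chromatin. Its members were all islands of the 8 deposited lists that touched this stretch, 42 of 107140 islands, and the stretch was chosen by the score per kb of its islands in these same lists. Island edges, scores and ranks are therefore given here as a description, without a test. In each list 5 islands stood at the same 5 places, named A to E from left to right, which accounts for 40 members. The other 2 members, both in the list of fragments over 1100 bp from TCPOBOP liver 1, were islands that crossed the left and right borders of the segment.

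Cwc22 encodes a splicing factor of the spliceosome that is needed to place the exon junction complex on spliced RNA. The gene lies inside R2d, a large segment of mouse chromosome 2 that is duplicated in many mice and whose copy number differs between strains and between animals of outbred stocks. A further copy, R2d2, sits elsewhere on the same chromosome, is absent from the reference strain C57BL/6J, and is known for meiotic drive through females. In the gene order of the GRCm38.p6 assembly, Cwc22 is the only protein-coding gene between Zfp385b, a zinc finger gene, and Gm14461. Its nearest neighbours there are the lncRNA Gm35431 and the pseudogene Gm17927 on one side and the pseudogene Gm13726 and the lncRNA Gm52519 on the other. The lists carry no gene names and the gene table is of another build than mm9, so which of the islands lies over Cwc22 was not determined.

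The promoter of Cwc22 is shown because Polycomb domains in mammals are known to form at CpG-rich promoters, and its capitals mark each CpG. RefSeq gives it in GRCm38.p6 as chr2:77946307-77946606 on the minus strand, positions that do not correspond to the mm9 numbers used for the islands.
Cwc22 promoter: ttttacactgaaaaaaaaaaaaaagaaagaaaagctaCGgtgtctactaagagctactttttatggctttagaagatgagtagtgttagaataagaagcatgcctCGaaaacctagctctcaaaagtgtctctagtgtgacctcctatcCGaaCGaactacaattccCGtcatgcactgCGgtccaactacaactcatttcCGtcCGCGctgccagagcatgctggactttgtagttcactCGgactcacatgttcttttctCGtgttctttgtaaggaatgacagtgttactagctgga
This window of 300 bases, 250 before and 50 after the start of the gene, held 11 CpG and had a GC content of 42%. Of 32851 promoters of the same length in that table, 60.4% held as many CpG or fewer, and the medians were 7 CpG and 52.7% GC. The CpG search used the letters CG, which read the same on both strands.

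The data were ChIP-seq libraries from livers of CD-1 (ICR) males aged 7 weeks, an outbred stock in which no 2 animals need share a genotype. Mice received TCPOBOP, an agonist of the nuclear receptor CAR, at a dose of 3 mg/kg, or corn oil with 1% DMSO as vehicle, and were killed for liver collection after 3 h. Fragments of 600 to 1100 bp, digested to 500 bp, gave 1 library from each of 3 TCPOBOP and 3 vehicle livers, and each liver was an individual animal. Fragments over 1100 bp, digested to 200 bp, gave 1 further library from the ChIP sample of TCPOBOP liver 1 and 1 from that of vehicle liver 1. The lists gave no read counts, so read density was worked out from the scores, as the number of reads per 400 bp window that would give an island its score if all its windows held the same number, divided by the background reads per window of that list. It is called relative read density here and is in fold over background. The background was 2.40 to 3.26 reads per window in the 6 libraries of 600 to 1100 bp and 14.5 and 14.2 in the TCPOBOP and vehicle libraries of fragments over 1100 bp. Over 843 regions found under islands in all 6 livers, the median relative read density was 2.48, 2.24 and 1.85 in TCPOBOP livers 1, 2 and 3 and 2.65, 2.62 and 2.27 in vehicle livers 1, 2 and 3. A higher relative read density can come from more of the mark or from more copies of the sequence in an animal than in the reference genome. No input library was analysed here, so mark and copy number cannot be told apart at any result below.

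The islands of the segment kept their edges from list to list. Islands B, from 77797201 to 77802000 (4.8 kb), and C, from 77808001 to 77835600 (27.6 kb), had the same start and the same end in all 8 lists. They were the 2 islands of the whole series with that property, among lists of at least 6295 islands. Island A ended at 77790000 in all 8 lists. Island D ended at 77850400 in all 8 and started at 77842001 in all except the 600 to 1100 bp list of vehicle liver 1, where it started 400 bp later and was 8.0 kb instead of 8.4 kb wide. Island E started at 77858001 in all 8 lists. Counted over the genome, 4 starts and 7 ends were the same in all 8 lists, and 3 of those starts and 4 of those ends lay in this segment.

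The 2 outer edges of the segment moved more. Island A started at 77702401, 77696401 and 77691601 in TCPOBOP livers 1, 2 and 3 and at 77707601, 77704401 and 77707601 in vehicle livers 1, 2 and 3, so its width ran from 82.4 to 98.4 kb in these lists. In fragments over 1100 bp it started at 77700801 in TCPOBOP liver 1, and in vehicle liver 1 it reached back to 77578801, beyond the border of the segment, for a width of 211.2 kb. Island E ended at 77865200, 77867600 and 77873600 in TCPOBOP livers 1, 2 and 3 and at 77865200, 77866800 and 77865200 in vehicle livers 1, 2 and 3. Its width was 7.2 to 15.6 kb, with the widest island in TCPOBOP liver 3. The inner gaps held no island in any of the 8 lists and measured 7.2 kb between A and B, 6.0 kb between B and C, 6.4 kb between C and D (6.8 kb in vehicle liver 1) and 7.6 kb between D and E.

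**Figure D1:**
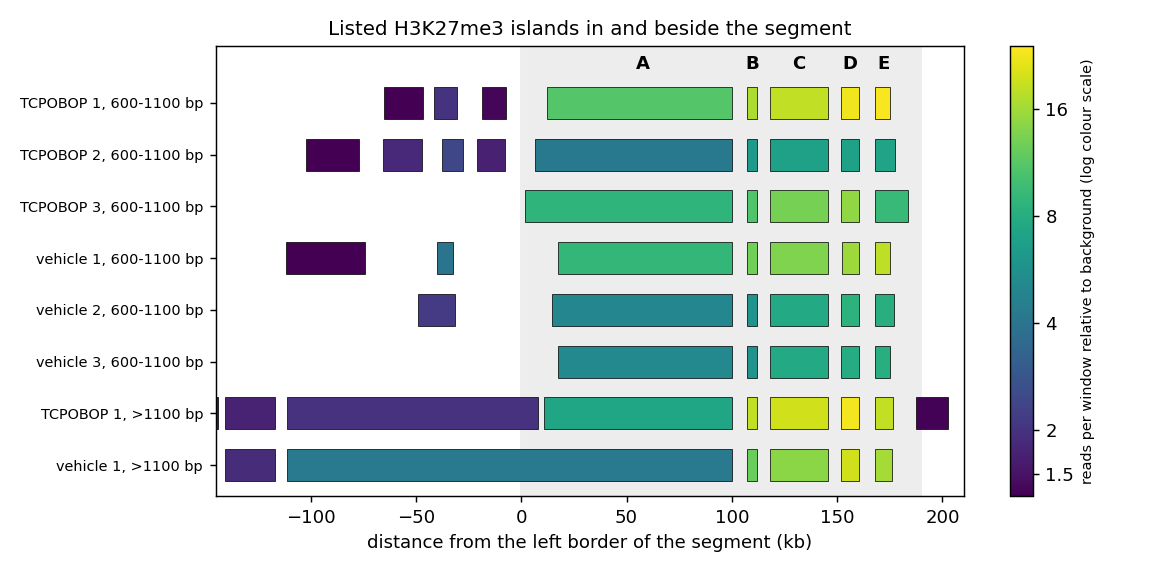
Islands listed in each of the 8 libraries (rows) along chromosome 2, with distance from the left border of the segment in kb on the x axis and relative read density (fold over background, log scale) as colour. The grey area is the segment. Islands B to E share their inner edges in every row except the start of D in vehicle liver 1, while the left end of A and the right end of E vary.

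Beyond these edges, listed islands had lower scores per kb on both sides. On the left, the nearest listed island lay 19.6, 14 and 1023.6 kb away in TCPOBOP livers 1, 2 and 3 and 50, 46.0 and 495.2 kb away in vehicle livers 1, 2 and 3. Their scores per kb were 4.21, 5.77 and 2.82 in the TCPOBOP lists and 24.7, 8.84 and 4.95 in the vehicle lists. On the right, the nearest island was 716.4 to 1409.6 kb away in the 6 lists, with 3.54 to 12.8 per kb. Island A, the weakest of the 5 by density in these lists, had 107.1, 26 and 86.8 per kb in TCPOBOP livers 1, 2 and 3 and 95.0, 38.4 and 31.2 per kb in vehicle livers 1, 2 and 3. In each liver this was higher than in the nearest island on either side. The 2 border islands of the TCPOBOP library of long fragments had scores per kb of 19.5 on the left and 7.73 on the right, against 307.1 for island A of the same list. In relative read density they had 1.96 and 1.32 fold, against a median of 1.61 over the islands of that list.

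Within each list the segment held places near the top of the ranking by score per kb. Island D ranked 1 to 3 in the 8 lists, island E 1 to 5, island C 2 to 6, island B 4 to 9 and island A 6 to 23. The lowest places belonged to vehicle liver 2, where A ranked 23 and B ranked 9 of 14748 islands. In TCPOBOP liver 1 and vehicle liver 1 the order from rank 1 was E, D, C and B in the 600 to 1100 bp lists. These were the same 4 ranks in both livers. In fragments over 1100 bp the order was D, C, E and B in TCPOBOP liver 1 and D, E, C and B in vehicle liver 1. By total score, in the 6 lists of 600 to 1100 bp, the long island A came first of the 5, at rank 1, 14 and 1 in TCPOBOP livers 1, 2 and 3 and rank 5, 17 and 4 in vehicle livers 1, 2 and 3. In fragments over 1100 bp island C was ahead of A, at ranks 2 and 4 in TCPOBOP liver 1 and ranks 4 and 5 in vehicle liver 1. The short island B was far down by total score, at ranks 103 to 2233 in the 8 lists. The islands of the segment made up 1.19, 0.294 and 1.72% of all score in TCPOBOP livers 1, 2 and 3 and 0.614, 0.294 and 0.407% in vehicle livers 1, 2 and 3, on 0.0382 to 0.0889% of the covered length.

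Relative read density differed widely between animals, and did so at all 5 islands. Island C had 18.1, 6.84 and 13.1 fold over background in TCPOBOP livers 1, 2 and 3, against 13.7, 7.54 and 7.54 fold in vehicle livers 1, 2 and 3. TCPOBOP livers 1 and 3 and vehicle liver 1 were high, TCPOBOP liver 2 and vehicle livers 2 and 3 were low, and the treatments overlapped. Island D had 22.5, 6.86 and 14.8 fold in the TCPOBOP livers and 15.7, 8.47 and 7.83 fold in the vehicle livers. Island B had 16.7, 6.24 and 10.7 fold in the TCPOBOP livers and 12.8, 5.83 and 5.78 fold in the vehicle livers. Both islands had the same 3 livers high and the same 3 low as island C. Island A was lower throughout, with 11.0, 4.22 and 8.61 fold in the TCPOBOP livers and 8.99, 4.97 and 5.15 fold in the vehicle livers. Island E reached the highest level of the segment, with 23.2, 7.07 and 9.25 fold in the TCPOBOP livers and 18.0, 8.18 and 8.18 fold in the vehicle livers. TCPOBOP liver 3 stood closer to the low livers at E than elsewhere. There the island was 15.6 kb wide. With the score of the whole island divided by the 7.2 kb common to all 6 lists, its value was 15.4 fold. The same division gave 8.46 for TCPOBOP liver 2 and 9.27 for vehicle liver 2. These are upper bounds, since they count score from outside the common length, most of all in TCPOBOP liver 3. At each of the 5 islands the 3 high livers were TCPOBOP livers 1 and 3 and vehicle liver 1, and the highest liver had 2.60 to 3.29 times the lowest.

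**Figure D2:**
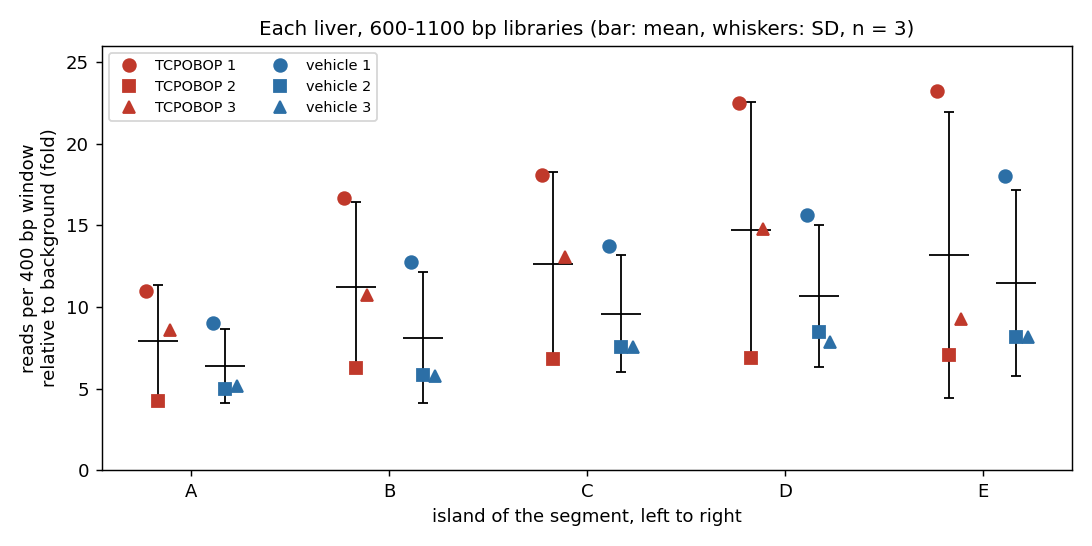
Relative read density (fold over background, y axis) of islands A to E (x axis) in the libraries of 600 to 1100 bp, 1 point per liver, with bars for the mean and whiskers for the SD of 3 livers. At each island TCPOBOP livers 1 and 3 and vehicle liver 1 lie above the other 3 livers, and the treatments overlap.

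The levels of the segment were then set against those of each whole library, over all 843 regions. TCPOBOP liver 3 had the lowest median of the 6 libraries, 1.85 fold, and was among the 3 high livers of the segment. Vehicle liver 2 had the second highest median, 2.62 fold, and was among the 3 low ones. Libraries were therefore centred on their own median over these regions, on the log2 scale. After centring, island C stood 2.87, 1.61 and 2.81 above the library median in TCPOBOP livers 1, 2 and 3 and 2.37, 1.52 and 1.73 above it in vehicle livers 1, 2 and 3. The same 3 livers were high. The island over the HoxA cluster, a classical Polycomb target of homeobox genes, had 4.04, 3.49 and 2.81 fold in the TCPOBOP livers and 4.59, 4.32 and 3.56 fold in the vehicle livers. It followed the library medians, with an SD over the 6 livers of 0.07 on the centred log2 scale.

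The spread between livers was larger at the segment than at nearly all other regions. The rule asked that at least 50% of a region's length lie under islands in every one of the 6 livers, which 4 of the 5 regions of the segment met. Region E failed it, since the widest island in TCPOBOP liver 3 left 46.2% under islands in the narrowest lists. The SD over 6 livers, on the centred log2 scale, was 0.70 at D, 0.68 at B, 0.61 at C and 0.60 at A. These were the ranks 1, 2, 3 and 5 of 843. Over the 839 regions outside the segment the SD had a median of 0.12 and reached 0.60 at its highest, in a region of 32.4 kb on chromosome 3 (98670801 to 98703200). Among the 100 regions of highest mean density, the 96 outside the segment had SDs of 0.02 to 0.51. Outside the segment, only a region on chromosome Y had a mean density as high as that of A to D, and its SD was 0.33. The other regions lay closer to background, so the comparison of spread is not matched for level. With the rule relaxed to 40%, which was chosen after seeing the data, E had an SD of 0.65, rank 3 of 1409. The choice of the segment used density and not this spread, but no test was made of it.

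**Figure D3:**
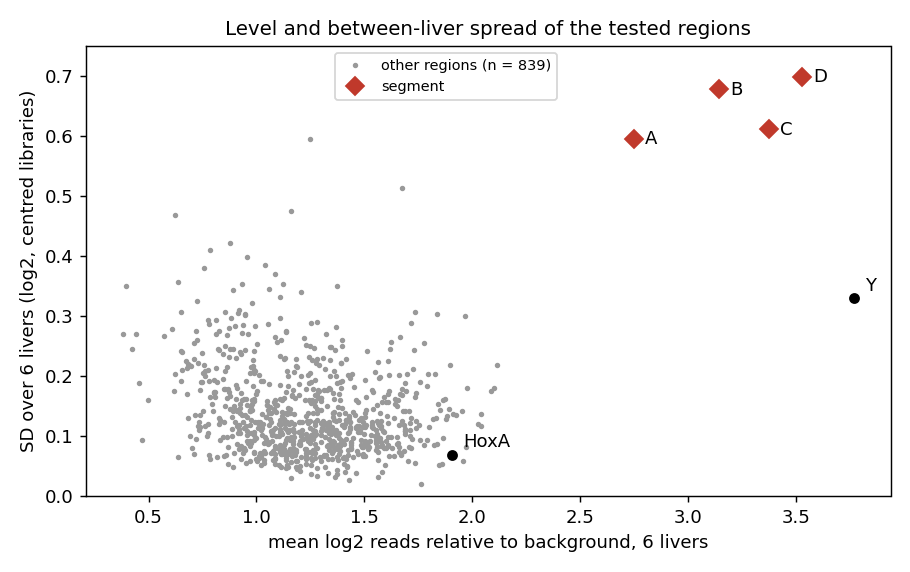
Each point is 1 of 843 regions, with its mean log2 relative read density over 6 livers on the x axis and its SD over the 6 livers, after centring each library, on the y axis. The segment regions A to D (red) have SDs of 0.60 to 0.70, while the HoxA region has 0.07 and the densest region, on chromosome Y, has 0.33.

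In level, too, the segment stood apart from most of the list. By mean relative read density, D, C, B and A were ranks 2, 3, 4 and 5 of 843, which follows from how the segment was chosen. Rank 1 was a region of 7.6 kb on chromosome Y (1785601 to 1793200), with 14.5, 11.4 and 15.8 fold in the TCPOBOP livers and 11.7, 14 and 14.9 fold in the vehicle livers. The next region after the segment, 42.8 kb on chromosome 2 (73093601 to 73136400), had 4.66, 3.46 and 2.84 fold in the TCPOBOP livers and 5.69, 5.44 and 4.67 fold in the vehicle livers. The following 3, on chromosomes 9, 10 and 17, had mean log2 densities of 2.10, 2.09 and 2.04, against 2.12 for the chromosome 2 region and 2.75 to 3.53 for A to D. Islands B, C and D were denser than the chromosome 2 region in each of the 6 livers. Island A was denser in 5 livers and less dense, at 4.97 fold, in vehicle liver 2.

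The islands moved together between livers. Island C differed 2.64 times between the highest and the lowest liver, but the ratio of C to A stayed between 1.46 and 1.65 in the 6 livers. The ratio of C to B ran from 1.08 to 1.3 and that of D to C from 1.00 to 1.25. Between regions A to D, the log2 difference had an SD over livers of 0.07 (A and C) to 0.18 (A and B), with a median of 0.14 over the 6 pairs. The same quantity over 215 pairs of other regions within 190 kb of each other had a median of 0.16 and a range of 0.03 to 0.43. However, the 839 regions outside the segment, from which these pairs come, mostly vary little themselves. Their median SD was 0.12, and the SD of the paired regions alone is not given here. The ratio of E to C was 1.28, 1.03 and 0.71 in the TCPOBOP livers and 1.31, 1.08 and 1.08 in the vehicle livers, lowest where E was widest. In fragments over 1100 bp, A stood lower against C. The ratio of A to C was 0.38 in TCPOBOP liver 1 and 0.29 in vehicle liver 1, where A was 211.2 kb wide. In the 600 to 1100 bp lists of these livers the ratio was 0.61 and 0.66. Since the livers formed a high and a low set of 3 at each region, no correlation over all 6 livers is given. Density rose from A to D in each liver, and E was above D in TCPOBOP livers 1 and 2 and vehicle livers 1 and 3 and below it in TCPOBOP liver 3 and vehicle liver 2.

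Likeness of other regions to the segment was measured as the SD over 6 livers of the log2 difference between a region and the mean of A to D, a measure chosen after the data had been seen. It was 0.04 to 0.11 for A to D, which enter that mean, and 0.43 to 1.07 for the 839 others. A region that varies little between livers cannot come near 0 on this measure. For such a region the value follows from its low spread and shows no distinct profile. The nearest were 19.6 kb on chromosome 12 (92627601 to 92647200) at 0.43, 24.8 kb on chromosome 6 (61120801 to 61145600) at 0.46 and 31.6 kb on chromosome 9 (121386001 to 121417600) at 0.46. Their own SDs over livers were 0.37, 0.26 and 0.23.

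Whether TCPOBOP changed the segment within 3 h was tested on these 843 regions. In fold over background the means were higher in TCPOBOP livers at each island, but by less than the SD of either treatment. After centring, the differences at A to D were below the SD of the TCPOBOP livers and above that of the vehicle livers. No region of the segment passed the test. Island C averaged 12.7 ± 5.63 fold in TCPOBOP livers and 9.60 ± 3.57 fold in vehicle livers (SD, n = 3 each). After centring, the difference at C was 0.56 on the log2 scale (limma SE 0.44, limma adjusted p = 0.905). At A, B and D it was 0.47, 0.66 and 0.58 (limma adjusted p = 0.905, 0.878 and 0.905). Two-sided exact permutation tests gave p = 0.4, 0.2, 0.3 and 0.4 for A to D, where 3 livers against 3 allow no p below 0.1. With limma, 0 of the 843 regions (0%) passed at an adjusted p of 0.05. At an unadjusted 0.05 there were 43 (5.1%), with none of A to D among them. The treatments did not overlap at 100 of the 843 regions (11.9%), with TCPOBOP above vehicle at 5.69% and below it at 6.17%, and they overlapped at A, B, C and D. The median difference over the 843 regions was -0.02 and its median size 0.08. At E, with the rule at 40%, the difference was 0.31 (limma adjusted p = 0.969).

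With any 1 liver left out the differences at A to D stayed above 0, and their size changed, at C between 0.34 and 0.97. Without TCPOBOP liver 2, TCPOBOP lay above vehicle without overlap at A, B, C and D, against 8.78% of the 843 regions with TCPOBOP above and 20.4% without overlap in either direction. Without vehicle liver 1 this held at B alone, against 10.4% with TCPOBOP above and 21.1% in either direction. Leaving out TCPOBOP liver 2 keeps TCPOBOP livers 1 and 3, both among the 3 high livers. Regions A to D also moved together, so they are not separate results to set against these shares. The libraries also differed in the share of background windows that reach the read threshold of the caller, 16.4 to 18.6% in TCPOBOP livers 2 and 3 and vehicle liver 1, and 9.56 to 11.2% in TCPOBOP liver 1 and vehicle livers 2 and 3. The part of that share in the difference was not tested. Within the first set the centred difference at C was -0.16 and within the second 1.24, and the other 3 regions changed sign in the same way. Each set has a single liver in 1 treatment, vehicle liver 1 in the first and TCPOBOP liver 1 in the second, both among the 3 high livers. These values therefore cannot separate the background share from differences between animals. The centring itself moved the differences, since the library medians were 0.21 lower on the log2 scale with TCPOBOP (1.12 against 1.33 with vehicle). Without it, C differed by 0.35 (limma adjusted p = 0.588).

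For 2 livers the segment could be read again in fragments over 1100 bp from the same ChIP sample, at a background of 14.5 reads per window in TCPOBOP liver 1 and 14.2 in vehicle liver 1. Island C had 19.4 fold in long fragments and 18.1 fold in fragments of 600 to 1100 bp of TCPOBOP liver 1, and 14.5 and 13.7 fold in vehicle liver 1. Island B had 18.1 and 16.7 fold in TCPOBOP liver 1 and 12.3 and 12.8 fold in vehicle liver 1. Values at B and C thus differed by less between the fragment classes of a liver than between the 2 livers. At D the classes were alike in TCPOBOP liver 1, at 22.8 and 22.5 fold, but not in vehicle liver 1, at 19.5 and 15.7 fold. At E the long fragments were lower in both livers, with 18.4 and 23.2 fold in TCPOBOP liver 1 and 16.1 and 18.0 fold in vehicle liver 1. TCPOBOP liver 1 was above vehicle liver 1 at all 5 islands in both classes, by 1.14 to 1.47 times at B to E in long fragments and by 1.22 to 1.44 times at A to E in shorter ones. At A the ratio in long fragments was 1.72, between islands of unequal width, 89.2 kb in TCPOBOP liver 1 and 211.2 kb in vehicle liver 1. With 1 library for each class and liver, no test was possible.

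**Figure D4:**
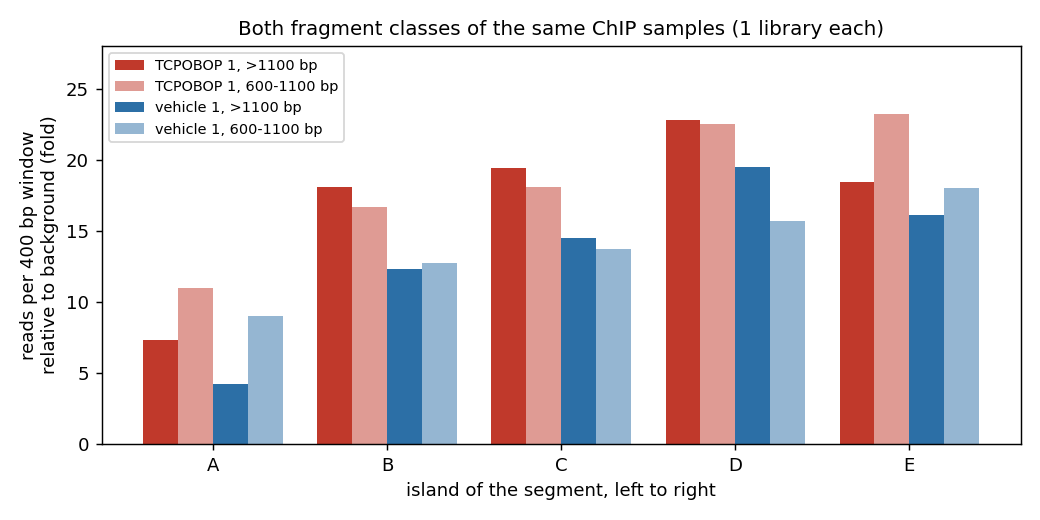
Relative read density (fold over background, y axis) of islands A to E (x axis) in both fragment classes of TCPOBOP liver 1 (red) and vehicle liver 1 (blue), 1 library per bar. Bars of 1 liver are close at B and C, and long fragments are lower at A and E.

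Island A read differently in the long fragments. It had 7.32 fold against 10.97 fold in the shorter fragments of TCPOBOP liver 1, over similar widths of 89.2 and 87.6 kb. In vehicle liver 1 it had 4.26 fold over 211.2 kb against 8.99 fold over 82.4 kb, and that value averages over the added stretch on its left. The edges of A on the right, and of B, C and D, were the same in the long fragments of both livers as in the other lists, apart from the start of D in vehicle liver 1.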

How the data were processed

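The files were lists of H3K27me3 islands, 1 for each library, with the authors' deposited score for each island. Bowtie2 2.3.2, SICER 1.1 and the build mm9 appear, without a role, in the submitters' processing notes, and whether an input was used is not stated there. Windows were 400 bp and gaps 2400 bp, per the names of the deposited lists. Coordinates were made 1-based.

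Background reads per window were worked out on the premise that each window with enough reads adds minus the natural log of its Poisson probability to the score, a form assumed from general knowledge of the caller. The read threshold was the lowest number with a Poisson tail of 0.2 or less. The background kept was the one that gave back the most scores of narrow islands as sums over whole reads, 13 to 38 of 40 in the libraries of 600 to 1100 bp (next best 0 to 3, vehicle liver 1 the weakest), and 3 of 3 and 2 of 2 in the TCPOBOP and vehicle libraries of long fragments. A ceiling on window scores was not tested, and its effect on the densest values is unknown. In 19 cases a region's value below background was set to 1. The depth of the libraries is unknown, and counting intervals are left out for that reason.

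Merging the islands of the 6 lists of 600 to 1100 bp gave 14560 regions, of which 843 were at least 50% covered in each list. Log2 relative read density, centred per library, was compared with limma 3.58.1 in R 4.3.3 (Benjamini-Hochberg adjustment over all 843). The fit was checked on simulated regions that shared an SD of 0.15, with changes of 1 on the log2 scale. Regions A to D had SDs of 0.60 to 0.70, so the check does not show what limma could detect there. Python 3.11.15 with scipy 1.17.1, pandas 2.3.3, numpy 2.4.6 and matplotlib 3.10.9 did the rest. Alternatives were no centring, score per kb, 80 and 40% cover and a score minimum of 84.6. Others were a replicate block, leaving out each liver and a split by background share. A last one divided the whole score of a region by the length shared by all 6 lists. The 40% cover, the shared length and the split were chosen after the data were seen. The members, lists and tests were chosen with earlier results of these data known. Planned correlations over livers were replaced because the livers formed 2 separate sets.

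By rule the text names the islands of the segment, the nearest island on each side, the densest regions outside it, the HoxA region and the 3 regions most like it, taken by the SD of the log2 difference in place of the planned correlation. The region with the largest SD outside the segment was named after its value was seen.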

Additional observations from a re-analysis of the deposited data

How the results depend on the processing

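The differences at A to D kept their direction and stayed short of an adjusted p of 0.05 under the alternatives with a test, at limma adjusted p of 0.498 to 0.987, and 0 regions were called in any. With 1 liver left out, 0 to 4 of regions A to D were without overlap. All 4 were so without TCPOBOP replicate 2, against 20.4% of the 843 regions in either direction and 8.78% with TCPOBOP above. Without vehicle replicate 1 it was B alone, against 21.1% and 10.4%. Regions A to D moved together between livers, so the 4 are not separate results. The differences with 1 liver left out ranged from 0.24 to 0.89 at A and 0.42 to 1.05 at B. At C and D they ranged from 0.34 to 0.97 and from 0.29 to 1.08. All 4 differences were highest without TCPOBOP replicate 2. In the 3 libraries with the higher background share, a split chosen after the data were seen that sets 2 TCPOBOP livers against vehicle liver 1 alone, they reversed to -0.20, -0.26, -0.16 and -0.26 at A to D; the cause was not tested. With score per kb in place of density they were 0.74, 1.04, 0.85 and 0.88. That scale also raised the SD over livers to 0.96, 1.06, 0.93 and 1.05 and the median SD of pair differences to 0.20, since scores rise faster than reads. With 1 liver left out the SDs ranged from 0.55 to 0.65 at A, 0.61 to 0.73 at B, 0.56 to 0.67 at C and 0.61 to 0.77 at D, and the pair value from 0.11 to 0.15. Ranked by total score, the median rank over 8 lists moved to 622.5 for B, 81 for D and 93.5 for E, which are short islands. It moved to 7 for C, which was 27.6 kb wide.

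The replicate block, with numbers from the labels that name no shared animal, called 0 regions and left the differences at 0.47, 0.66, 0.56 and 0.58 with limma adjusted p of 0.787, 0.658, 0.787 and 0.787. The correlation of deviations from the group means was 0.158, 0.0173 and 0.111 for numbers 1, 2 and 3, so the numbers were not taken to pair the livers.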

Other observations

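The region with the largest spread outside the segment, 32.4 kb on chromosome 3 (98670801 to 98703200), ordered the livers differently from the segment. It had 2.55, 2.08 and 1.72 fold over background in TCPOBOP livers 1, 2 and 3 and 1.37, 3.87 and 3.75 fold in vehicle livers 1, 2 and 3. Vehicle livers 2 and 3, low in the segment, were the highest there, and vehicle liver 1, high in the segment, was the lowest.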
